A study of Mus musculus with 6 samples.

Results

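C-type lectin receptors are the genes described here, a family of mostly cell-surface proteins that bind sugars, lipids or proteins on microbes and dying cells. They were taken from the table as every gene whose symbol begins with Clec and a digit, plus Mrc1, Mrc2, Ly75, Cd209a, Cd209d, Cd209e, Mgl2 and Cd207, leaving out any that the table describes as a pseudogene. This gave 42 of the 55740 gene models in the table, and 21 of the 42 reached 1 TPM in at least 3 samples and were tested. TPM is the length-scaled share of a gene in all transcripts of a sample. Expression was measured by RNA sequencing in dendritic cells grown from the bone marrow of C57BL/6J mice. Of the 6 samples, 3 were given phosphate-buffered saline (PBS) and 3 were given 18 mM lysine, a cationic amino acid, with 6 h of treatment. No genetic change is labelled in either group. The sources used here do not give the growth factors of the culture. Nothing in the labels ties replicates to different cultures or mice, and the p-values therefore rest on a spread between samples that may be technical.

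In dendritic cells these receptors sort into activating and inhibitory kinds. Activating ones, such as Dectin-1, Dectin-2 and Mincle, signal through the kinase SYK, either from a motif in their own tail or through the adaptor FcRgamma, and reach NF-kB through CARD9, BCL10 and MALT1. Inhibitory ones, such as DCIR, carry a tail motif that recruits phosphatases, and others, such as DEC-205 and the mannose receptor, mainly take up antigen.

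Libraries differed less within a group than between groups, with Pearson correlations of log2(TPM + 1) across genes of 0.974 to 0.982 within and 0.914 to 0.934 between. The depth is unknown because TPM keeps none. Some dendritic cell markers were abundant. Itgax, which encodes CD11c, was at 347 to 385 TPM over the 6 samples and Cd74, the class II invariant chain, at 2735 to 4141 TPM. Among other markers of these cells, Flt3 was low, at 0.95 to 2.66 TPM, as was Xcr1, at 0.2 to 0.62 TPM. Markers of macrophages and monocytes were present as well, with Cd68 at 449 to 553 TPM and Chil3 at 16415 to 30047 TPM. Siglech, which marks plasmacytoid dendritic cells, was listed at 0 in all 6 samples. Replicate 3 of both groups had the highest Cd74 and the lowest Chil3 of its group.

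The family total overlapped between the groups, but its make-up shifted. Summed over the 42 genes, expression was 5735, 5656 and 5304 TPM in PBS replicates 1, 2 and 3 and 5303, 5463 and 5574 TPM with lysine. Within that total Clec4e, which encodes Mincle, grew from 3.33%, 2.95% and 2.38% to 14.8%, 14.7% and 6.73%. The share of Clec4n, which encodes Dectin-2, went from 54.9%, 54.5% and 54.6% to 42.6%, 43.0% and 47.9%. In the order of mean TPM, Clec4e moved from the 6th to the 4th place among the members, behind Clec4n, Mgl2 and Clec7a, which led in that order in both groups.

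**Figure D1:**
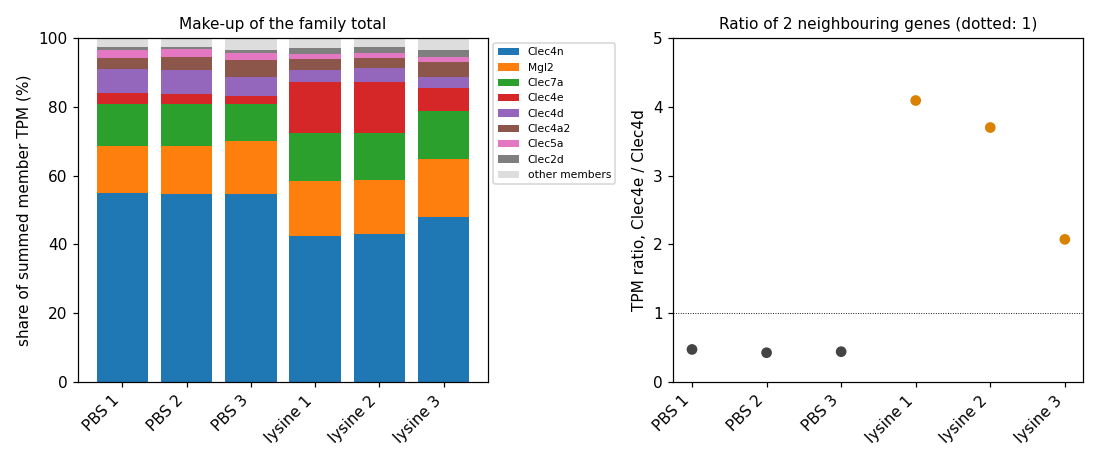
Left, the share of each of 8 genes in the summed TPM of the 42 members, in percent, one bar per sample. Right, the ratio of Clec4e to Clec4d TPM in each sample, with a dotted line at 1: the PBS samples lie between 0.428 and 0.475 and the lysine samples between 2.07 and 4.09.

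Of the 21 members tested with limma, 5 rose, 6 fell and 10 did not pass an adjusted p of 0.05. Among all 12539 genes tested, 55.1% were called, 25.8% higher and 29.3% lower, against 52.4% of the tested members, so the share of members called lay near the background. The median log2 fold change was 0.045 over the tested members and -0.05 over all genes tested. The groups did not overlap for 13 of the 21, or 61.9%, against 63.4% of all genes tested. In 7 members every lysine sample was above every PBS sample (29.7% of all genes tested) and in 6 every one was below (33.7%). A change that passed and was at least 2-fold on the log2(TPM + 1) scale was found for 2 of the 21, Clec4e and Clec2d, against 13% of all genes tested. None of the 21 had passed the filter through a single group. In this bulk RNA, fewer cells of a type and less RNA per cell cannot be told apart.

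**Figure D2:**
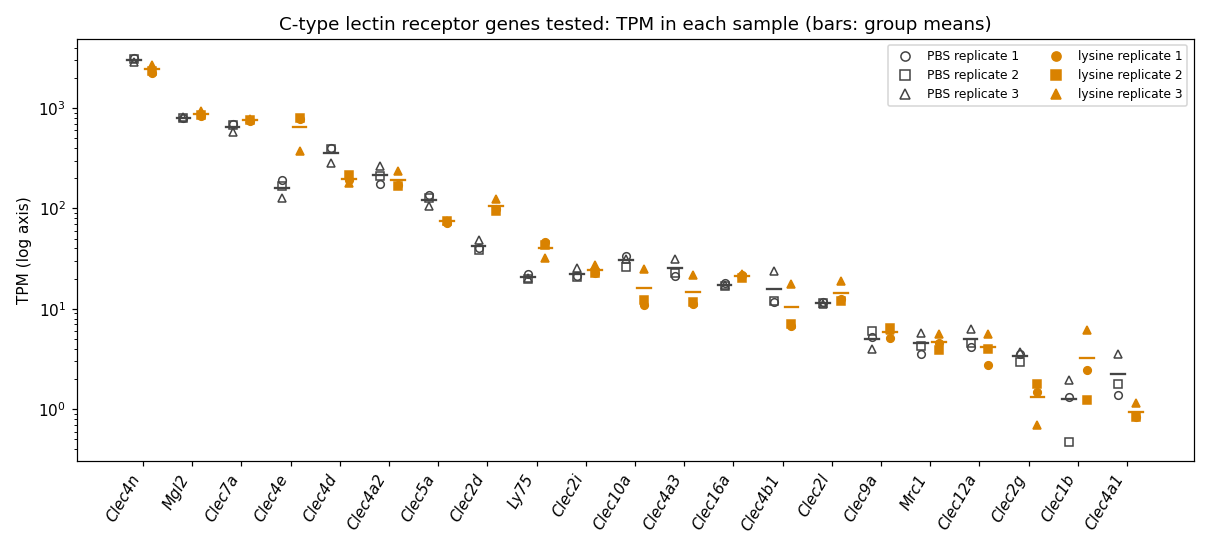
TPM on a log axis for the 21 tested members, ordered by mean level, with open grey symbols for PBS, filled orange symbols for lysine, a symbol shape per replicate and a bar at each group mean. Levels span from Clec4n, at 2257 to 3148 TPM, to Clec4a1, at 0.83 to 3.53 TPM.

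Clec4e showed the largest change among the tested members. Mincle, its product, binds the cord factor of mycobacteria and a protein released by dying cells, and signals through FcRgamma. Clec4e stood at 191.08, 166.64 and 126.17 TPM in PBS replicates 1, 2 and 3 and at 783.92, 801.1 and 375.05 TPM with lysine. The groups did not overlap, and lysine replicate 3 was the lowest of its group, as PBS replicate 3 was of its own. The mean was 4.05-fold higher with lysine (log2 fold change 1.95 ± 0.31 SE, n = 3 against 3, limma adjusted p = 0.00228).

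Clec4d, the gene next to it, moved in the other direction. It encodes MCL, also called Dectin-3, which forms complexes with Mincle and Dectin-2 at the cell surface. Its TPM was 401.92, 389.28 and 284.73 in the PBS samples and 191.7, 216.69 and 180.89 in the lysine samples, with no overlap. That was a 1.83-fold lower mean (log2 fold change -0.85 ± 0.14 SE, limma adjusted p = 0.00273). The ratio of Clec4e to Clec4d TPM within a sample, which does not depend on how samples are scaled, was 0.475, 0.428 and 0.443 with PBS and 4.09, 3.70 and 2.07 with lysine. Clec4d was thus the more abundant of the pair in each PBS sample and the less abundant in each lysine sample.

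Both genes lie in a run of 9 members on chromosome 6 of GRCm38, from Clec4a1 to Clec4e, over 368 kb (122921848 to 123289870). Clec4d occupies 123262111 to 123275265 on the plus strand and Clec4e 123281789 to 123289870 on the minus strand, so their 3′ ends face each other across 6.52 kb. Of the 7 members tested in the run, 6 had a log2 fold change below 0, of which 3 passed (Clec4n, Clec4d and Clec4a3), and Clec4e was the one above 0. Over all genes tested the median was -0.05, and 29.3% were called lower.

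**Figure D3:**
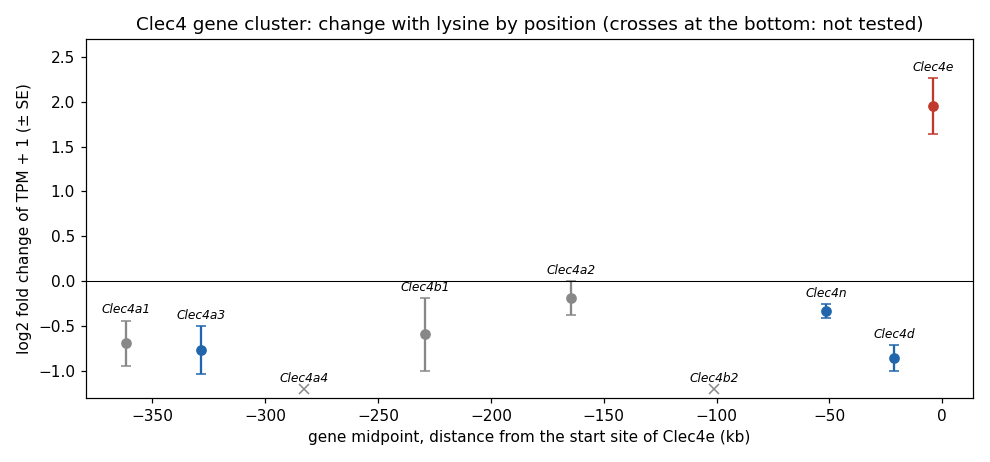
Log2 fold change of TPM + 1, lysine over PBS, with its SE, against the distance of each gene's midpoint from the start site of Clec4e in kb. Red is higher, blue lower and grey did not pass; crosses at the bottom mark Clec4a4 and Clec4b2, which were not tested. Clec4e stands at 1.95, and the other 6 points lie between -0.85 and -0.19.

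The 250 bases before the RefSeq start (GRCm38.p6) are shown for this pair, because the neighbours moved in opposite directions, and for Clec2d and Ly75, the next largest of the rises that passed. They read 5′ to 3′ on the strand of the gene, with capitals for a match to any of 7 motifs searched on both strands.
Clec4e (chr6:123289872-123290121, minus strand): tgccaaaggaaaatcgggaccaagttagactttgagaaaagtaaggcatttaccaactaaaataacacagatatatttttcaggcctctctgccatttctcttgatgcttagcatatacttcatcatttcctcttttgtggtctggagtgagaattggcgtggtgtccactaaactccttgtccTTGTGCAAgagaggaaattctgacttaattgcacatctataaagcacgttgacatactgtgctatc
Clec4d (chr6:123261857-123262106, plus strand): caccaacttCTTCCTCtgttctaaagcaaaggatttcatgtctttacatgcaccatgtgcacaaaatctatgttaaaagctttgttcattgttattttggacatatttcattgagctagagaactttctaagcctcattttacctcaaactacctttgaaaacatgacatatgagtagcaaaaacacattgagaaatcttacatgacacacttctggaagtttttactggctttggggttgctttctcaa
Clec2d (chr6:129180365-129180614, plus strand): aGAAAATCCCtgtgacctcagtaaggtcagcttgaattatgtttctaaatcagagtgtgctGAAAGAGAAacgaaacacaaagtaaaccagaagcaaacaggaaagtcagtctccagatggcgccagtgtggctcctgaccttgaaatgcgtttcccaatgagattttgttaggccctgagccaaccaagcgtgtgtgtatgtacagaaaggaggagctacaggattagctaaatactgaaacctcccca
Ly75 (chr2:60383274-60383523, minus strand): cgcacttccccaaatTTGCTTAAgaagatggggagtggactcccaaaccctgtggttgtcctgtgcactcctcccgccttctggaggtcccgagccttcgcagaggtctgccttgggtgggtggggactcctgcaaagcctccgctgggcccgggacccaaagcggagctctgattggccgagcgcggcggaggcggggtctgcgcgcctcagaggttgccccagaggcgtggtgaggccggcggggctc
The motifs were GAGGAAG (PU.1), TTNNGCAA (C/EBP), TGANTCA (AP-1), GGGANTTTC (NF-kB), GAAANNGAA (interferon response element), TGATGNAA (the C/EBP-ATF composite) and CACGTG (E-box), where N is any base. The capitals of different motifs did not overlap in these windows. Clec4e held the C/EBP letters, first base 66 bases before the start, and Ly75 held them in reverse, 235 bases before it. Clec4d held the PU.1 letters in reverse at 241 bases. Clec2d held the NF-kB letters in reverse at 249 bases and the interferon element at 189 bases.
Among the 19 tested members with an entry (Clec10a and Clec4n have none), the C/EBP letters were found in Clec4e, Ly75, Clec16a and Clec12a. They occur in 9.56% of all 32851 promoter windows of that length. The PU.1 letters were in 6 of the 19, among them Clec4d and Clec5a, against 10.6% of all windows. For the remaining motifs there were 2 members with AP-1 letters (6.75% of all windows), 2 with the interferon element (7.13%), 2 with NF-kB (0.941%), 1 with the composite (3.45%) and 0 with the E-box (6.02%). A match is a description of the sequence and not a measured binding site.

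Among the other activating receptors, Clec4n and Clec5a fell and Clec7a rose slightly. Dectin-2, encoded by Clec4n, binds mannans of fungi, and its gene was the most abundant member in every sample, at 3148.37, 3084.52 and 2894.65 TPM with PBS and 2256.68, 2351.1 and 2671.84 TPM with lysine. The groups did not overlap, and the mean was 1.25-fold lower (log2 fold change -0.33 ± 0.077 SE, limma adjusted p = 0.0108). Without a filter on low genes the call was lost (adjusted p = 0.0549).
Clec5a encodes MDL-1, which signals through the adaptor DAP12. Its level was 136.23, 126.15 and 105.51 TPM with PBS and 72.43, 74.87 and 75.5 TPM with lysine, close together in the treated group and 1.65-fold lower (log2 fold change -0.71 ± 0.097 SE, adjusted p = 0.00116).
Clec7a encodes Dectin-1, the receptor for beta-glucans of fungal walls. It was at 686.75, 684.94 and 575.78 TPM with PBS and 741.96, 758.3 and 779.56 TPM with lysine, 1.17-fold higher (log2 fold change 0.23 ± 0.079 SE, adjusted p = 0.0437). It missed the threshold in 9 of 13 alternatives, at adjusted p of 0.0501 to 0.103. Dropping any single sample was enough, be it PBS replicate 1 (0.0512), 2 (0.054) or 3 (0.0501) or lysine replicate 1 (0.0824), 2 (0.103) or 3 (0.0887). GENCODE M21 classes this gene as a polymorphic pseudogene, while the deposited table describes it as a lectin gene.
The ratio of Clec4n to Clec7a within a sample was 4.58, 4.50 and 5.03 with PBS and 3.04, 3.10 and 3.43 with lysine. Dectin-2 transcripts outnumbered those of Dectin-1 in all 6 samples, by less with lysine.

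Clec4b1, which encodes the activating receptor DCAR, did not pass. Its TPM was 11.65, 11.94 and 23.62 with PBS and 6.78, 7.1 and 17.61 with lysine (log2 fold change -0.59 ± 0.41 SE, adjusted p = 0.258). Replicate 3 was the high sample in each group, and without lysine replicate 3 the gene passed as lower (adjusted p = 0.0377). A stretch of 436 bases of its longest transcript matched Clec4a2 at 96.3%, so its value is uncertain. Clec9a encodes DNGR-1, a receptor for actin of dead cells that marks cross-presenting dendritic cells. It stood at 5.26, 5.96 and 3.97 TPM with PBS and 5.13, 6.48 and 6.22 TPM with lysine, with overlap (adjusted p = 0.302). Clec1b encodes CLEC-2, the podoplanin receptor known from platelets. Its values were 1.32, 0.47 and 1.97 TPM with PBS and 2.44, 1.23 and 6.12 TPM with lysine (adjusted p = 0.177). The annotated ends of Clec1b and Clec9a overlap on the same strand, so reads there could not be assigned with certainty.

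Of the 3 genes of the DCIR group tested, Clec4a3 alone passed, as lower, where 29.3% of all genes tested were called lower. Which of the 3 carry the inhibitory tail motif was not analysed here. Clec4a2, which encodes DCIR itself, was the most abundant of them, at 177.25, 211.78 and 264.43 TPM with PBS and 169.96, 166.6 and 237.61 TPM with lysine (log2 fold change -0.19 ± 0.19 SE, adjusted p = 0.433). The groups overlapped. Clec4a3 was at 21.28, 22.99 and 31.71 TPM with PBS and 11.16, 11.82 and 21.64 TPM with lysine. It passed as 1.70-fold lower (log2 fold change -0.77 ± 0.27 SE, adjusted p = 0.0463), although lysine replicate 3 lay above PBS replicate 1. It missed the threshold in 7 alternatives, at adjusted p of 0.0563 to 0.132, such as without PBS replicate 1 (0.0624), 2 (0.0826) or 3 (0.132) and without lysine replicate 1 (0.132) or 2 (0.131). Clec4a1 was at 1.39, 1.79 and 3.53 TPM with PBS and 0.83, 0.83 and 1.15 TPM with lysine. It just missed the threshold (adjusted p = 0.0544) and passed as lower without PBS replicate 1 (0.0329) and with a pseudocount of 0.1 (0.047).
Clec12a, an inhibitory receptor for uric acid crystals, was low at 4.14, 4.54 and 6.29 TPM with PBS and 2.79, 3.99 and 5.63 TPM with lysine, with overlap (adjusted p = 0.413).

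Among the uptake receptors Ly75 rose. It encodes DEC-205, which delivers antigen to compartments for presentation. Its TPM was 22.43, 19.98 and 20.37 with PBS and 46.14, 43.38 and 32.04 with lysine, with no overlap and the smallest value of the treated group in replicate 3. The mean was 1.94-fold higher (log2 fold change 0.91 ± 0.14 SE, limma adjusted p = 0.00194). The gene lies on chromosome 2, 60292103 to 60383303.
Mrc1, which encodes the mannose receptor CD206, was low and did not pass, at 3.54, 4.27 and 5.76 TPM with PBS and 4.53, 3.86 and 5.61 TPM with lysine (log2 fold change 0.045 ± 0.19 SE, adjusted p = 0.855). Its sign depended on the setting, from -0.086 to 0.20.

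Mgl2 and Clec10a encode the galactose-type lectins CD301b and CD301a, neighbours on chromosome 11. Mgl2 was the second most abundant member, at 792.21, 801.01 and 816.75 TPM with PBS and 835.86, 850.22 and 938 TPM with lysine. Every lysine value was above every PBS value, but the change did not pass (log2 fold change 0.12 ± 0.058 SE, adjusted p = 0.123). Under median-of-ratios scaling it passed as higher (adjusted p = 0.0244). Clec10a was far lower, at 33.69, 26.42 and 31.6 TPM with PBS and 10.89, 12.15 and 24.95 TPM with lysine. It fell 1.91-fold (log2 fold change -0.98 ± 0.29 SE, adjusted p = 0.0278). It missed the threshold in 5 alternatives, without a filter on low genes (0.0735) and on dropping PBS replicate 1 (0.0814), PBS replicate 3 (0.0739), lysine replicate 1 (0.0789) or lysine replicate 2 (0.0849). The longest annotated transcripts of this pair matched at 96.7% over 704 bases, measured from Mgl2, and Mgl2 was 23.5 to 76.8 times as abundant. The authors quantified with RSEM, but its settings for shared reads are not given, so the value of Clec10a is uncertain.

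The Clec2 genes encode small lectins, several of which are ligands of receptors on natural killer cells. Clec2d encodes Clr-b, the ligand of the inhibitory receptor NKR-P1B. It stood at 40.71, 38.48 and 48.51 TPM with PBS and 98, 94.04 and 123.38 TPM with lysine. Replicate 3 was the highest of each group and the groups were far apart, with a 2.47-fold higher mean (log2 fold change 1.28 ± 0.13 SE, limma adjusted p = 0.000364). It lies on chromosome 6, 129180615 to 129186534.
Clec2i, which encodes Clr-g, overlapped between the groups, at 21.41, 20.76 and 25.34 TPM with PBS and 22.7, 22.73 and 27.06 TPM with lysine (adjusted p = 0.469). The ratio of Clec2d to Clec2i within a sample was 1.90, 1.85 and 1.91 with PBS and 4.32, 4.14 and 4.56 with lysine, so this pair came apart in each treated sample. Clec2g fell from 3.52, 2.95 and 3.68 TPM to 1.48, 1.78 and 0.7 TPM (log2 fold change -0.94 ± 0.20 SE, adjusted p = 0.00784). Its longest transcript matched that of Clec2i at 90.2% over 2264 bases, so the division of reads between them is uncertain. The longest transcript of Clec2d matched Clec2g at 88.2% over 832 bases, so the same limit holds there. Clec2l was at 11.74, 11.42 and 11.06 TPM with PBS and 12.65, 11.88 and 18.96 TPM with lysine (adjusted p = 0.184), the last value standing above all others.

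Clec16a carries the family's name, but its product is known as a regulator of endosomes and mitophagy and not as a sugar receptor. It rose 1.23-fold, from 17.95, 17.03 and 17.21 TPM to 21.83, 20.1 and 22.45 TPM (log2 fold change 0.29 ± 0.072 SE, adjusted p = 0.0141), and the call was lost without PBS replicate 2 (adjusted p = 0.0513).

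**Figure D4:**
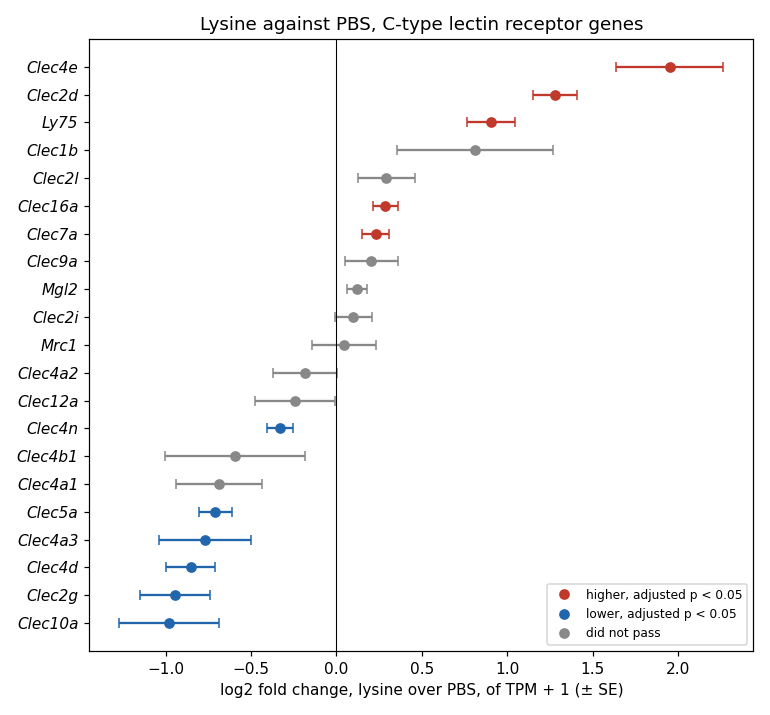
Log2 fold change of TPM + 1, lysine over PBS, with its SE, for the 21 tested members in order of size. Red members rose, blue members fell and grey members did not pass; Clec4e is highest at 1.95 and Clec10a lowest at -0.98.

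The other 21 members stayed under the filter and were not tested. Of these 8 were listed at 0 in all 6 samples, namely Clec3a, Clec4f, Clec2j, Clec2h, Clec14a, Cd207, Cd209e and Clec4g. Cd207 encodes langerin, the marker of Langerhans cells, Clec4f is known from Kupffer cells and Clec14a from endothelium. There were 9 that stayed above 0 in some sample but under 0.5 TPM, namely Clec11a, Clec12b, Mrc2, Clec4b2, Cd209d, Cd209a, Clec2m, Clec18a and Clec2e. Cd209a, a mouse counterpart of the DC-SIGN gene, was at no more than 0.17 TPM. Mrc2, which encodes the collagen receptor Endo180, was at 0.37, 0.39 and 0.07 TPM with PBS and 0.01, 0.04 and 0.05 TPM with lysine. Clec12b was at 0, 0.05 and 0 TPM with PBS and 0.32, 0.29 and 0.28 TPM with lysine. A value of exactly 0 in TPM need not mean that no transcript was there.
Reaching 0.5 TPM in a sample were Clec1a (0.52, 0.48 and 0.42 TPM with PBS, 0.34, 0.3 and 0.41 TPM with lysine), which encodes a receptor for fungal melanin, and Clec3b, which encodes tetranectin (0.19, 0.2 and 0 TPM with PBS, 0.78, 0.07 and 0 TPM with lysine). The others were Clec4a4, a gene of the DCIR group (0, 0.1 and 0.48 TPM with PBS, 0.22, 0.8 and 0.1 TPM with lysine), and Clec2f (0, 0.74 and 0.12 TPM with PBS, 0.71, 0.39 and 0.24 TPM with lysine). Clec2f and Clec2j are pseudogenes in GENCODE M21 and were kept because the deposited table does not describe them so.

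Genes that act below the receptors went both ways. Of 42 signalling genes listed, all tested, 10 rose (23.8%), 16 fell (38.1%) and 16 did not pass. Over all genes tested, 25.8% were called higher and 29.3% lower. The median log2 fold change of the signalling genes was -0.25, against -0.05 over all genes tested. Fcer1g, which encodes the FcRgamma chain of Mincle and Dectin-2 and was chosen after its values were seen, stood at 1171, 1147 and 1130 TPM with PBS and 1283, 1334 and 1298 TPM with lysine (log2 fold change 0.18 ± 0.045 SE, adjusted p = 0.013). That call was lost without PBS replicate 2 (0.0529) or lysine replicate 2 (0.06). Tyrobp, which encodes DAP12, the adaptor of MDL-1, was at 1276 to 1302 TPM with PBS and 1361 to 1438 TPM with lysine and did not pass (adjusted p = 0.0798). It passed as higher under median-of-ratios scaling (0.0179) and quantile normalization (0.00248). Syk itself was at 153 to 160 TPM with PBS and 163 to 174 TPM with lysine (adjusted p = 0.0888), and passed as higher under median-of-ratios scaling (0.0385) and without lysine replicate 3 (0.0357).
Below SYK, the parts of one complex split. Bcl10 rose from 41.57, 37.91 and 38.79 TPM to 92.54, 90.98 and 93.07 TPM (log2 fold change 1.21 ± 0.057 SE, adjusted p = 3.06e-05). Its partner Malt1, chosen after its values were seen, rose from 92.79, 95.84 and 88.5 TPM to 237.48, 210.57 and 136.28 TPM (adjusted p = 0.00455). Card9, which links SYK to both and was chosen in the same way, fell from 56.18, 61.07 and 77.94 TPM to 23.58, 21.9 and 36.81 TPM (log2 fold change -1.24 ± 0.21 SE, adjusted p = 0.00302).
The ubiquitin ligase gene Traf6 rose from 11.4 to 12.8 TPM across the PBS samples to 23.4 to 28.5 TPM (adjusted p = 0.000248). The NF-kB subunit genes Rel (adjusted p = 1.55e-05) and Relb (adjusted p = 9.58e-05) rose as well, by 1.94 and 1.19 on the log2 scale.
The Src-family kinase gene Fgr fell by 3.57 on the log2 scale (adjusted p = 2.77e-05). Btk, a kinase that acts with SYK, and Ikbke, an IKK-related kinase gene, fell by 1.03 and 1.61 (adjusted p = 7.45e-05 and 0.000113). The phosphatase gene Inpp5d, with 80.4 to 120 TPM with PBS and 68.8 to 80.2 TPM with lysine (adjusted p = 0.0546), and Prkcd, with 451 to 522 and 335 to 462 TPM (adjusted p = 0.0613), did not pass. Inpp5d passed as lower without PBS replicate 1 (0.00478), with a filter of 5 TPM (0.0498) and under quantile normalization (0.0311). Prkcd passed as lower without lysine replicate 3 (0.00328) and under quantile normalization (0.0207).

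**Figure D5:**
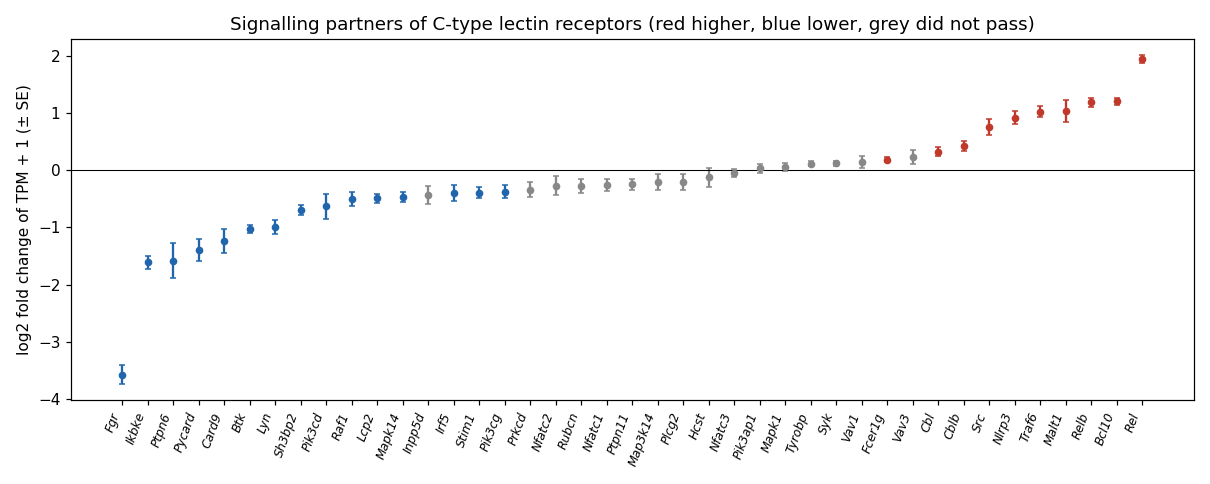
Log2 fold change of TPM + 1, lysine over PBS, with its SE, for 41 of the 42 signalling genes in order of size. Red genes rose, blue genes fell and grey genes did not pass; Rel is highest at 1.94 and Fgr lowest at -3.57.

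Of 62 other genes that encode a C-type lectin domain, 60 were analysed here and 19 were tested. At the adjusted threshold 4 rose and 6 fell, and 9 did not pass, so 52.6% were called against 55.1% of all genes tested. Their median log2 fold change was -0.35, against -0.05 over all genes tested. Cd69, an early activation antigen, rose from 24.35, 28.66 and 20.55 TPM to 76.18, 76.6 and 53.52 TPM (log2 fold change 1.44 ± 0.18 SE, adjusted p = 0.00071). Cd93, a receptor of phagocytes and endothelium, rose from 24.2 ± 1.62 to 44.8 ± 6.98 TPM (mean ± SD, n = 3, limma adjusted p = 0.00129), and Klrg2 from 1.76 ± 0.0586 to 3.64 ± 0.723 TPM (limma adjusted p = 0.0054). Olr1, the receptor for oxidised LDL and neighbour in the gene complex of Clec7a, was the most abundant of the list and was chosen for that after its values were seen. It was at 229.07, 210.16 and 140.58 TPM with PBS and 378.04, 388.93 and 223.86 TPM with lysine, with overlap. It passed at adjusted p = 0.0482, and it missed the threshold in 8 alternatives (0.0531 to 0.136), such as on dropping PBS replicate 1 (0.0531), 2 (0.0772) or 3 (0.127), or lysine replicate 1 (0.135) or 2 (0.136).
Falls were found for Cd302, an endocytic lectin gene, from 84.43, 80.87 and 66.26 TPM to 53.35, 53.65 and 41.47 TPM (adjusted p = 0.00707), and for the hyaluronan receptor gene Layn from 34.11, 34.16 and 14.68 TPM to 8.53, 5.42 and 2.12 TPM (adjusted p = 0.0078). Vcan, a matrix proteoglycan, fell from 31.9 ± 1.47 to 19.0 ± 5.64 TPM (mean ± SD, n = 3, limma adjusted p = 0.0129). The other 2 that the rule named were Klra7 (adjusted p = 0.0107) and Cd72 (adjusted p = 0.0247), both with lower values with lysine. Klra7 was at 1.45, 1.41 and 2.04 TPM with PBS and 0.09, 0.3 and 0.79 TPM with lysine. It passed the filter through the PBS samples alone, as did Prg2, another of the 6 that fell. Those calls depend on the filter and are not taken as evidence of a fall. Cd72 missed the threshold in 6 alternatives (0.0542 to 0.0916), such as on dropping PBS replicate 2 (0.0608), PBS replicate 3 (0.0722), lysine replicate 1 (0.0582) or lysine replicate 3 (0.0542). Pkd1, Klra2, Klra17 and Asgr2 were the most abundant that did not pass, with adjusted p of 0.427, 0.262, 0.134 and 0.706. Without lysine replicate 3, Klra2 passed as lower (0.0206) and Klra17 as higher (0.0335).

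Markers of other cell types moved beside these genes, and their part in the results was not tested. Of 11 macrophage markers, all tested, 5 fell and 0 rose at the adjusted threshold, where 29.3% of all genes tested were called lower and 25.8% higher. Their summed level was 1372 to 1415 TPM with PBS and 1228 to 1317 TPM with lysine. For monocytes, 3 of 5 tested markers fell, and the sums of 16617 to 24714 and 20852 to 30146 TPM, mostly Chil3, overlapped. Of 8 tested dendritic cell markers Irf4 rose and Batf3 fell, while the sums overlapped at 4009 to 5921 and 4338 to 5662 TPM. Neutrophil markers summed to 79.1 to 119 TPM with PBS and 38.4 to 46.4 TPM with lysine, mostly S100a8, with Elane at 0. Of the 4 neutrophil markers tested, 1 fell (S100a8) and 3 did not pass. Platelet markers summed to 427 to 502 and 209 to 229 TPM, mostly Pf4, and natural killer cell markers to 18.6 to 42.3 and 2.46 to 14.2 TPM, mostly Gzma. In each of these lists 2 markers were tested, of which 1 fell (Pf4 and Gzma) and 1 did not pass. Markers of plasmacytoid dendritic cells went from 197 to 204 TPM to 123 to 130 TPM, mostly Bst2, and osteoclast markers from 215 to 272 TPM to 152 to 174 TPM. Of the 3 plasmacytoid markers tested, 2 fell and 1 did not pass. Of the 4 osteoclast markers tested, Dcstamp (limma adjusted p = 0.00273) and Ocstamp (0.0399) fell, Ctsk rose (0.00107) and Acp5 did not pass (0.651). The call of Ocstamp was lost without lysine replicate 1 (0.103), 2 (0.0964) or 3 (0.0599). T cell markers, led by Trac, summed to 8.02 to 32.9 and 3.06 to 22.8 TPM, and mast cell and basophil markers to 5.35 to 11.3 and 3.92 to 5.31 TPM. Of the latter, Cpa3 fell from 6.09, 4.83 and 2.24 TPM to 0.24, 0.43 and 0.6 TPM (limma adjusted p = 0.00225), and Kit did not pass (0.218). Cpa3 passed the filter through the PBS samples alone, where it was high, so its call depends on the filter. B cell (led by Cd79b), erythroid (Hbb-bs) and stromal (Col1a1) markers summed to at most 4.1, 3.5 and 0.82 TPM in any sample.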

How the data were processed

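The authors deposited TPM to 2 decimals, with 6 sample columns and 55740 gene models. Per the design text, abundances were quantified with RSEM. Per the submitters' processing notes, the tools were HISAT2, StringTie, RSEM and edgeR and the build was GRCm38.p6, while the sources used here give no versions, annotation release or strand setting. TPM keeps no depth, so no counting error could be given. Columns marked K, the letter code of lysine, were matched to the lysine samples by that letter and number.

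From these values log2(TPM + 1) was computed and lysine was compared with PBS over all 6 samples, with limma 3.58.1 (R 4.3.3) and an intensity trend. The 12539 genes that reached 1 TPM in 3 or more samples entered. P-values were adjusted over them by the Benjamini-Hochberg method and called under 0.05. Fold changes understate the change of low genes; folds of means are of TPM. With 3 samples against 3 an exact permutation test cannot go below p = 0.1. Every tested member is named. Of the other lists, the rule names the 8 smallest adjusted p that passed, the 4 most abundant that did not, and the most abundant marker of each cell type; 1 gene the rule names is not reported here. Some markers named, such as Itgax, Irf4, Batf3, Siglech, Elane, Cpa3, Ctsk, Ocstamp and Acp5, lie outside that rule. The members and lists were chosen with earlier results of these data known. Positions come from GENCODE M21, which held all 42 identifiers, promoters from RefSeq (GRCm38.p6), and transcript matches from BLAST 2.17.0. Protein features were not analysed here. Alternatives were a pseudocount of 0.1, no filter, a filter of 5 TPM, median-of-ratios scaling, quantile normalization, no trend, a block for the replicate number, and leaving out each sample.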

Additional observations from a re-analysis of the deposited data

How the results depend on the processing

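All 11 called members kept their direction in each of the 13 alternatives, and 6 of them kept the call in each one that tested them (Clec4e, Clec4d, Clec5a, Clec2d, Ly75 and Clec2g, which the 5 TPM filter left out). Leaving out 1 sample gave 3 to 4 members higher, the 3 without PBS replicate 2, and 4 to 7 lower, against 5 and 6. Without a filter, 3 were lower and 5 higher, with Clec12b (0 to 0.32 TPM in all samples) gained and Clec7a lost. The other lectin domain list held 3 lower with a filter of 5 TPM, which tests fewer genes. Leaving out 1 sample gave 8 to 11 signalling genes higher and 13 to 16 lower, and 3 to 6 and 4 to 6 in the other lectin domain list.

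Samples with the same number were not taken as pairs, because the labels name nothing they share. Their deviations from the group means did correlate, at 0.171, 0.092 and 0.245 for numbers 1, 2 and 3. Between different numbers the correlations were -0.208 to 0.048. Every sample correlated best with its own number. With a replicate block, 6 members were higher and 8 lower, with Clec1b (adjusted p = 0.0191), Clec4a1 (0.0285) and Clec4b1 (0.00575) gained. Of signalling genes 11 were then higher and 20 lower, with Inpp5d (adjusted p = 0.00934) and Prkcd (0.00881) passing as lower and Tyrobp (0.0362) as higher. Klra17 (0.00269) and the marker Chil3 (0.00176) passed as higher with the block, and the markers Cd68 (0.0368) and Trac (0.0327) as lower. Members under the filter were tested only in the alternative without one. Depth is unknown, so no difference is read from their values.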
